A study of Mus musculus with 8 samples.

Results

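The genes described here encode proteins of the mitochondrial ribosome, called mitoribosomal genes below. They were taken by gene symbol: every probe set annotated to exactly 1 symbol of the form Mrpl or Mrps followed by a number and at most 1 letter was kept. Where a gene had several, the one brightest on average over all 8 arrays stood for it. This gave 76 genes among 18194 genes with such a probe set, 47 named for the large subunit (Mrpl) and 29 for the small subunit (Mrps). The rule used no difference between the groups.

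The study compared ventricles of 8 male mice on an FVB background, aged 8 to 12 weeks, all studied 1 week after banding of the ascending aorta, which makes the left ventricle pump against a raised pressure. Of these, 4 mice were labelled CHF1/Hey2 transgenic, with the transgene driven in the myocardium by the mlc2v promoter, and 4 were labelled wild type. Since all hearts were banded, no value below measures the response to banding. The labels do not name litters or surgery days. There were 4 Affymetrix Mouse Genome 430 2.0 arrays per group, and the values are log2 expression values, so that a difference of 1 is a doubling.

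Mitochondria keep a small genome that encodes core subunits of the respiratory chain and of the ATP synthase, and these proteins are made inside the organelle on a dedicated ribosome. Its ribosomal RNAs come from mitochondrial DNA, whereas its proteins are encoded in the nucleus, made in the cytosol and imported. Some of them descend from bacterial ribosomal proteins and others were added later in evolution. In the heart, which depends on oxidative metabolism, inherited defects of MRPL3, MRPL44, MRPS14 and MRPS22 are known causes of cardiomyopathy in infants.

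Promoter windows show the kind of sequence these genes start from, and 4 are printed because their genes carry the patterns described below. RefSeq (build GRCm38.p6) gave windows for 67 of the 76 genes, each covering 250 bases before to 50 bases after a transcription start, 73 windows in all. Each stretch printed here is 180 bases on the strand of the gene, 5′ to 3′, from 150 bases before the start to 30 bases from it on, and the capitals mark the motif named. Mrpl22 lies at chr11:58171514-58171693 (+ strand) and Mrps27 at chr13:99344636-99344815 (+ strand). Mrpl12 lies at chr11:120484487-120484666 (+ strand) and Mrpl47 at chr3:32736726-32736905 (- strand).
Mrpl22 (capitals, CCGGAAG, the core bound by ETS factors such as GABP): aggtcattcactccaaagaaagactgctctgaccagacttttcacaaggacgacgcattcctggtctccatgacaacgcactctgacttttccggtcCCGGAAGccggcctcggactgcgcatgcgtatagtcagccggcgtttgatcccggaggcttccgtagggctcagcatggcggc
Mrps27 (capitals, CCGGAAG on the opposite strand and then AAGATGGCG, a YY1 motif): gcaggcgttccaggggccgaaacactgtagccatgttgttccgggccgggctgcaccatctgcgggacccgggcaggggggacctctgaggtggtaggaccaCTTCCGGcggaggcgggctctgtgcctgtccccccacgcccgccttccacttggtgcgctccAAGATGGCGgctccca
Mrpl12 (capitals, the motif of the nuclear respiratory factor NRF1, in which the base after the first GCGC may be any): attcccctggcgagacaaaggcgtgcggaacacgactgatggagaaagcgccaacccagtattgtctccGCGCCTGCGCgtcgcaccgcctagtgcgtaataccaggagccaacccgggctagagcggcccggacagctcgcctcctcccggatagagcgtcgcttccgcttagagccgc
Mrpl47 (no motif of the 6 searched): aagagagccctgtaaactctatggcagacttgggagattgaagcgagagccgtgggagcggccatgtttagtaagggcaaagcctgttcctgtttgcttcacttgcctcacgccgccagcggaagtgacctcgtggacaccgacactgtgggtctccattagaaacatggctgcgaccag

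The 6 motifs were searched on both strands of the full windows of 300 bases. CCGGAAG stood in 25 of the 73 windows (34.2%), against 8.86% of all 32851 windows in the table. The NRF1 motif stood in 12 (16.4%, against 4.60%), and YY1's AAGATGGCG in 8 (11.0%, against 1.40%). Of the E box forms, CACGCG stood in 12 windows (16.4%, against 9.27%) and CACGTG in 7 (9.59%, against 7.15%). The 7 windows with CACGTG belonged to 5 of the 67 genes, because overlapping windows of Mrpl2 held the same site. TCAAGGTCA, the motif of the estrogen-related receptors, stood in 0 windows, against 0.423% of all. CACGCG overlapped the NRF1 motif in 3 genes. These are matches of letters and not measured binding sites.

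Some arrays stood apart from the rest, and the results below rest on them in part. For transgenic replicate 2, r across the 9607 genes tested was 0.788 to 0.840 with the remaining arrays, and for transgenic replicate 3 it reached 0.964 at most. Among the other 6 arrays r was 0.977 to 0.992. Genes are not independent replicates, so no p is given. Hey2, read by 1 probe set, averaged 5.96 ± 0.24 in the transgenic group and 6.07 ± 0.47 in the wild-type group (SD, n = 4 each), so it did not check the labels, and the sources used here do not say if its probes match the construct. All 10 cardiomyocyte markers, Myh6, Actc1 and Tnnt2 among them, lay above the detection floor, a log2 value above 5 in at least 4 arrays. The 3' minus 5' difference of the Gapdh control probe sets was between -0.28 and -0.11 in all 8 arrays, and that of Actb between 0.62 and 1.21, lowest in transgenic replicate 2.

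All 76 mitoribosomal genes exceeded the floor, in every array. Their mean log2 values ran from 6.98 to 13.47. Thus no gene entered the comparison through 1 group alone.

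The study's title asks about hypertrophy under pressure overload with CHF1/Hey2 raised in the myocardium. Mitoribosomal genes had higher means in the arrays labelled transgenic almost throughout: 72 of 76, against 57.0% of all genes tested. The median difference was 0.36, about as large as the range of a gene over the wild-type arrays (median 0.37), against a median of 0.06 over all genes. No mitoribosomal gene passed limma's test with Benjamini-Hochberg adjustment over all genes (lowest adjusted p = 0.813), and 0.00% of all genes did. At an unadjusted limma p under 0.05, 2 genes were higher, Mrpl22 and Mrpl55, and 0 were lower, where 1.22% of all genes were higher and 0.375% lower. The number was 15 without transgenic replicate 4 and 6 without transgenic replicate 1. It was 0 without transgenic replicate 2, transgenic replicate 3, or wild-type replicate 1, 3 or 4, and 1 without wild-type replicate 2. The shares of all genes at this p with an array left out are not given here.

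For 5 genes the groups did not overlap, namely Mrpl22, Mrpl23, Mrpl58, Mrps6 and Mrps30, all higher in the arrays labelled transgenic, where 2.00% of all genes were higher without overlap and 0.479% lower. The median 95% confidence interval of a mitoribosomal gene reached 0.51 to either side of its difference. The spread was wider in the arrays labelled transgenic for 71 of the 76 genes, with a median SD of 0.38 against 0.17 in wild type. The share of all genes with a wider spread in those arrays is not given here. Over all genes tested, the quartiles of the deviation from the wild-type mean were -0.68 and 0.85 in transgenic replicate 2. They were -0.33 and 0.26 in transgenic replicate 3, against -0.07 and 0.20 in wild-type replicate 1. Wide deviations in transgenic replicates 2 and 3 were therefore not particular to mitoribosomal genes.

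The higher means rested on 2 hearts. In transgenic replicate 2 the median mitoribosomal gene lay 0.72 above its wild-type mean, and in transgenic replicate 3 it lay 0.55 above. The medians in transgenic replicates 1 and 4 were 0.16 and 0.02, against 0.09, 0.15, -0.13 and -0.10 in wild-type replicates 1 to 4. Replicate 4 lay inside the wild-type range and replicate 1 just above its top. Over all genes tested the medians in transgenic replicates 1 to 4 were 0.03, 0.29, -0.02 and 0.07. For 53 of the 76 genes (69.7%), transgenic replicates 2 and 3 both lay above every wild-type array, which held for 15.6% of all genes. Without these 2 arrays the median difference was 0.09, against 0.05 over all genes, with 67 of 76 means higher against 65.3% of all genes, and 71 genes differed by under 0.2 in either direction.

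**Figure D1:**
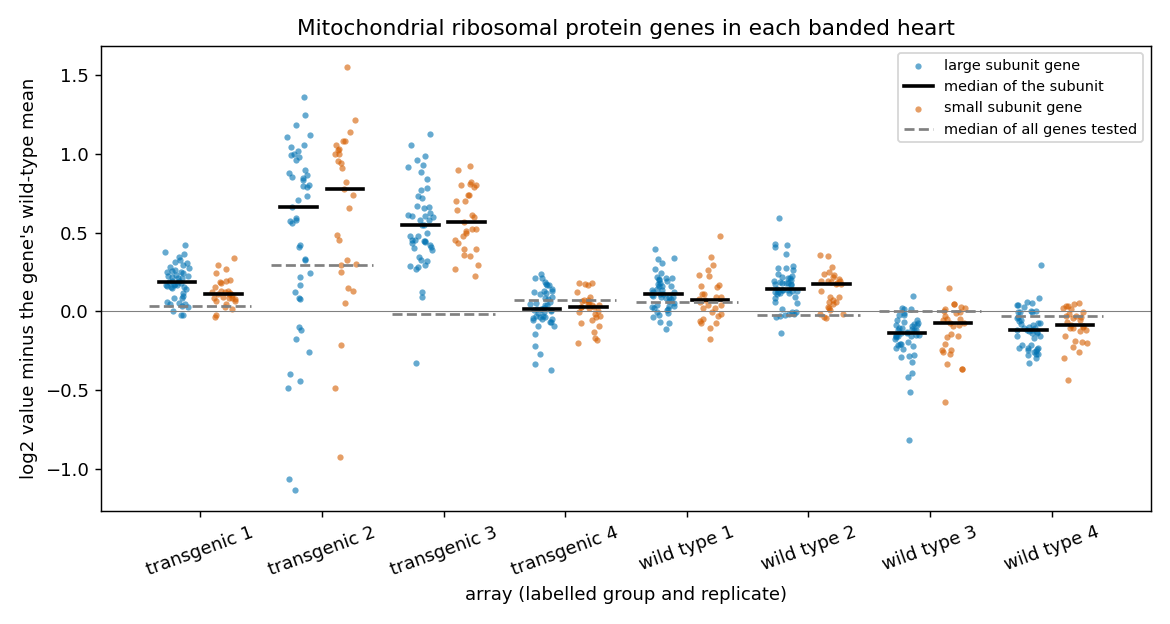
Each point is 1 mitoribosomal gene in 1 array, plotted as its log2 value minus its wild-type mean, for the 47 large subunit genes and the 29 small subunit genes. Black bars are subunit medians and dashed lines the median of all 9607 genes tested; the subunit medians for replicate 2 of the transgenic group are 0.66 and 0.78, those for its replicate 3 are 0.55 and 0.56, and the others lie between -0.14 and 0.18.

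Large and small subunit genes had close medians in each array. The median difference was 0.32 for the 47 large subunit genes, of which 45 had a higher mean, and 0.37 for the 29 small subunit genes, of which 27 did. In transgenic replicate 2 the large subunit median lay at 0.66 and the small one at 0.78, and in transgenic replicate 3 at 0.55 and 0.56. The large minus small difference of medians was 0.07, -0.11, -0.02 and -0.01 in transgenic replicates 1 to 4 and 0.04, -0.03, -0.06 and -0.03 in wild-type replicates 1 to 4. The sign varied within both groups. The group means of this difference were 0.00 apart, with an SD between arrays of 0.06, and no test was made because genes are not replicates. Without transgenic replicates 2 and 3 the subunit medians were 0.10 and 0.08, and without transgenic replicate 2 alone the small subunit median was 0.23.

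The proteins of Mrps18a and Mrps30 sit in the large subunit despite their names, and moving both genes there gave medians of 0.36 for the large and 0.37 for the small subunit. With the proteins placed this way, the 29 large subunit genes with a bacterial counterpart had a median difference of 0.32, and the 19 without had 0.36. In the small subunit the 16 genes with a counterpart had 0.38 and the 10 without had 0.37, where Mrps28, whose protein is distantly related to a bacterial one, was counted among those without. Mrpl58 and Mrps36 stood in neither class and differed by 0.39 and 0.29. Mrpl58 encodes a peptidyl-tRNA hydrolase built into the large subunit, and the product of Mrps36 is now known as a component of the 2-oxoglutarate dehydrogenase complex.

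**Figure D2:**
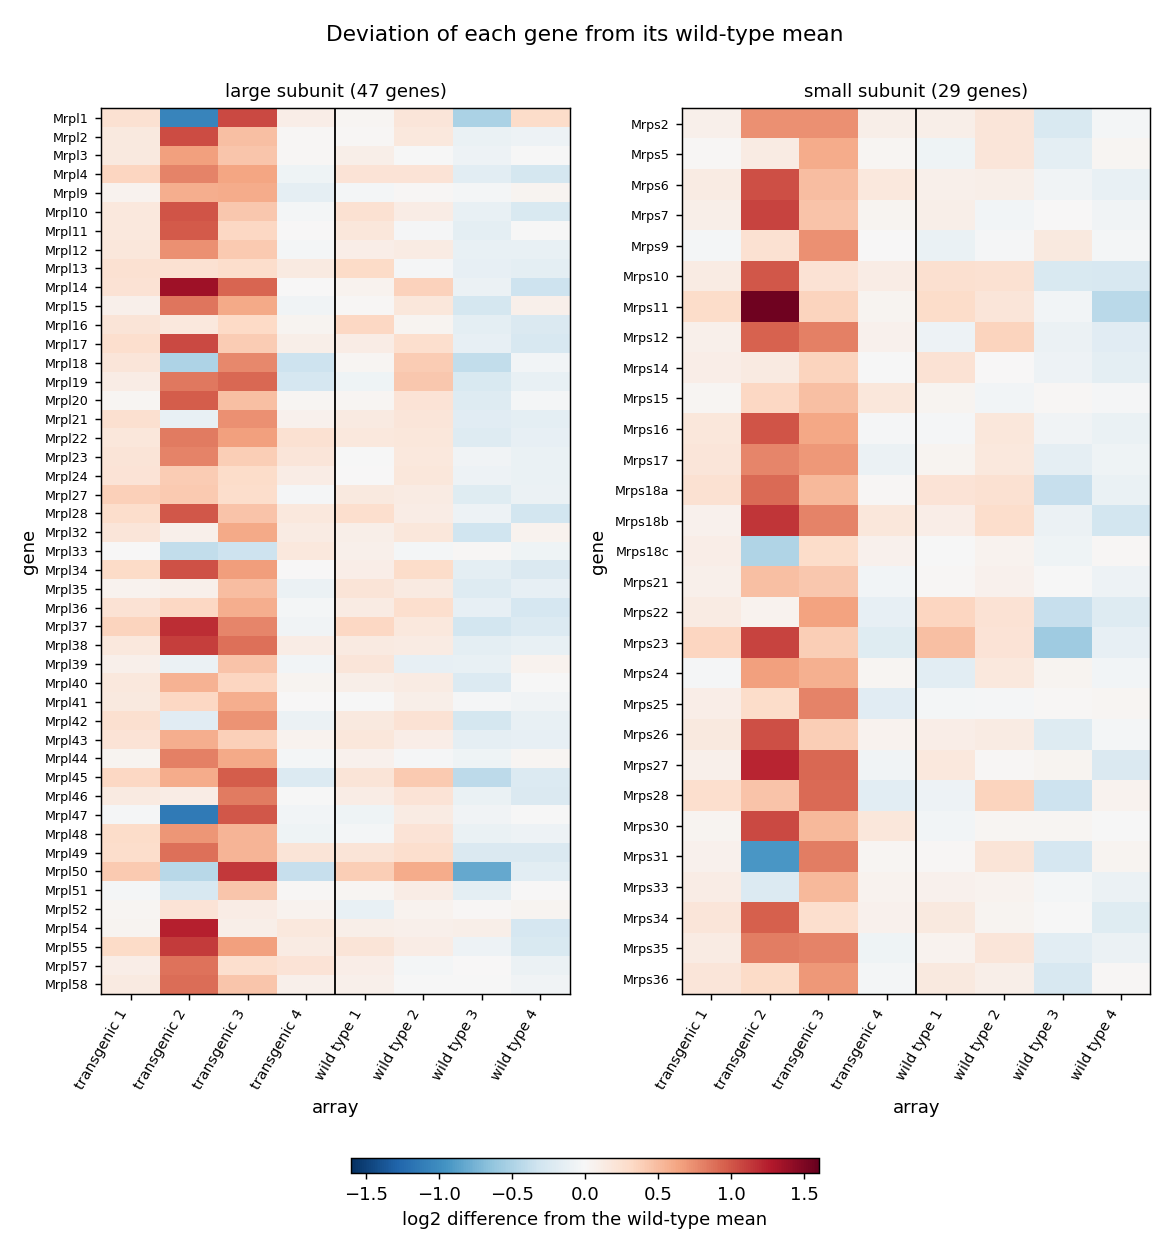
Colour gives the log2 difference of each gene from its wild-type mean in each of the 8 arrays, with large subunit genes on the left and small subunit genes on the right, ordered by number. The columns of transgenic replicates 2 and 3 carry most of the colour, and 12 genes are below 0 in replicate 2, of which 11 are above 0 in replicate 3.

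Among large subunit genes, Mrpl22, a relative of the bacterial protein that lines the exit tunnel, had the smallest unadjusted p of the 76 genes (0.0461). Its log2 values were 10.14, 10.79, 10.62 and 10.20 in transgenic replicates 1 to 4 and 10.12, 10.14, 9.75 and 9.82 in wild-type replicates 1 to 4. All transgenic values lay above all wild-type values, but replicate 1 stood at the level of wild-type replicates 1 and 2. The difference was 0.48 (SE 0.206), with limma adjusted p = 0.813, and 0.21 without transgenic replicates 2 and 3.

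Mrpl55, a protein with no bacterial counterpart, measured 8.37, 9.17, 8.71 and 8.18 in transgenic replicates 1 to 4 and 8.26, 8.18, 7.98 and 7.81 in wild type. Its difference was 0.55 (SE 0.240; limma adjusted p = 0.813), and 0.22 without transgenic replicates 2 and 3. Mrpl38, which lies in the central protuberance, had 9.73, 10.66, 10.45 and 9.69 in transgenic replicates 1 to 4 and 9.70, 9.70, 9.41 and 9.44 in wild type. Transgenic replicates 2 and 3 alone stood above wild type by more than the wild-type range, and replicate 4 lay inside that range. The difference of 0.57 (SE 0.255) was 0.15 without these 2 arrays.

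The stalk of the large subunit recruits translation factors, and its base and arms are built from the products of Mrpl10 and Mrpl12. Mrpl12, whose product has also been reported to bind the mitochondrial RNA polymerase, measured 11.35, 11.90, 11.59 and 11.13 in transgenic replicates 1 to 4 and 11.28, 11.30, 11.05 and 11.05 in wild type. Mrpl10 had 9.43, 10.27, 9.70 and 9.23 against 9.51, 9.39, 9.15 and 9.01. Both genes had transgenic replicate 2 highest and replicate 3 next, with replicate 4 inside the wild-type range. They differed by 0.32 (SE 0.199) and 0.39 (SE 0.247), or by 0.07 each without transgenic replicates 2 and 3, and neither passed (limma adjusted p = 0.813 each).

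Of the large subunit genes tied to infantile cardiomyopathy, Mrpl3 had 11.25, 11.75, 11.54 and 11.11 in transgenic replicates 1 to 4 and 11.18, 11.08, 11.01 and 11.08 in wild type. Mrpl44, a relative of RNase III, had 9.78, 10.54, 10.34 and 9.70 against 9.80, 9.71, 9.66 and 9.76. At the probe sets used, the wild-type hearts lay within narrow ranges for both genes. Only transgenic replicates 2 and 3 stood clear of these ranges by more than their width. Without these arrays the differences of 0.32 and 0.36 were 0.09 and 0.01. Wild-type values ran from 10.17 to 10.70 at another Mrpl3 probe set above the floor. They ran from 8.60 to 9.05, 9.46 to 9.57 and 7.07 to 8.27 at the other Mrpl44 probe sets above it. Only at the last of these did transgenic replicates 2 and 3, at 9.16 and 8.75, exceed wild type by less than its range.

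Mrpl45, whose product helps to tether the ribosome to the inner membrane, spread more among wild-type hearts. Its values were 9.22, 9.49, 9.86 and 8.67 in transgenic replicates 1 to 4 and 9.11, 9.31, 8.47 and 8.68 in wild type, with a difference of 0.42 (SE 0.294). Mrpl41, a large subunit protein without bacterial counterpart, had 10.42, 10.59, 10.83 and 10.26 against 10.25, 10.34, 10.23 and 10.20. Its difference was 0.27 (SE 0.169), or 0.08 without transgenic replicates 2 and 3. Both genes were highest in transgenic replicate 3, and neither passed (limma adjusted p = 0.813 each).

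Among small subunit genes, Mrps6 and Mrps30 had groups that did not overlap. Mrps6, a relative of bacterial S6, had 10.41, 11.31, 10.78 and 10.45 in transgenic replicates 1 to 4 and 10.36, 10.38, 10.23 and 10.17 in wild type. Mrps30 had 9.21, 10.22, 9.68 and 9.35 against 9.12, 9.19, 9.19 and 9.16. Its wild-type values spanned less than 0.1, and transgenic replicate 1 stood just above them. The differences were 0.46 (SE 0.222) and 0.45 (SE 0.230), with limma adjusted p = 0.813 each, and 0.15 and 0.11 without transgenic replicates 2 and 3.

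Mrps27 encodes an RNA-binding protein of the pentatricopeptide repeat family. Its values were 6.78, 7.92, 7.63 and 6.65 in transgenic replicates 1 to 4 and 6.87, 6.73, 6.75 and 6.48 in wild type, a difference of 0.54 (SE 0.301). Transgenic replicates 1 and 4 lay inside the wild-type range, and without replicates 2 and 3 the difference was 0.01. Mrps12, the relative of the bacterial protein at the decoding site, had 8.57, 9.42, 9.29 and 8.55 against 8.40, 8.83, 8.39 and 8.30. Its difference of 0.48 (SE 0.255) was 0.08 without the same arrays.

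Mrps16 and Mrps34 followed the same course. Mrps16, the relative of bacterial S16, had 10.46, 11.28, 10.89 and 10.26 in transgenic replicates 1 to 4 and 10.26, 10.46, 10.23 and 10.17 in wild type. Mrps34, needed in mice for a stable small subunit, had 11.16, 11.92, 11.23 and 11.03 against 11.12, 11.01, 10.95 and 10.77. Replicate 2 was the highest array for both, and their differences were 0.44 (SE 0.238) and 0.37 (SE 0.222). Neither passed (limma adjusted p = 0.813 each).

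At the probe sets used, smaller differences were found in Mrps14, Mrps22 and Mrps5. Mrps14 had 11.15, 11.19, 11.40 and 11.04 in transgenic replicates 1 to 4 and 11.27, 11.05, 10.96 and 10.88 in wild type, so that its groups overlapped broadly, with a difference of 0.15 (SE 0.162). Mrps22, another gene tied to cardiomyopathy, had 9.62, 9.55, 10.14 and 9.36 against 9.84, 9.73, 9.13 and 9.29. Only transgenic replicate 3 lay above its wild-type range, and the difference of 0.17 (SE 0.239) was -0.00 without transgenic replicates 2 and 3. Mrps5, the relative of bacterial S5, differed by 0.19 (SE 0.186). At another probe set above the floor Mrps5 differed by 0.58. The deviation in transgenic replicate 2 was 1.41 there, against 0.13 at the probe set used.

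**Figure D3:**
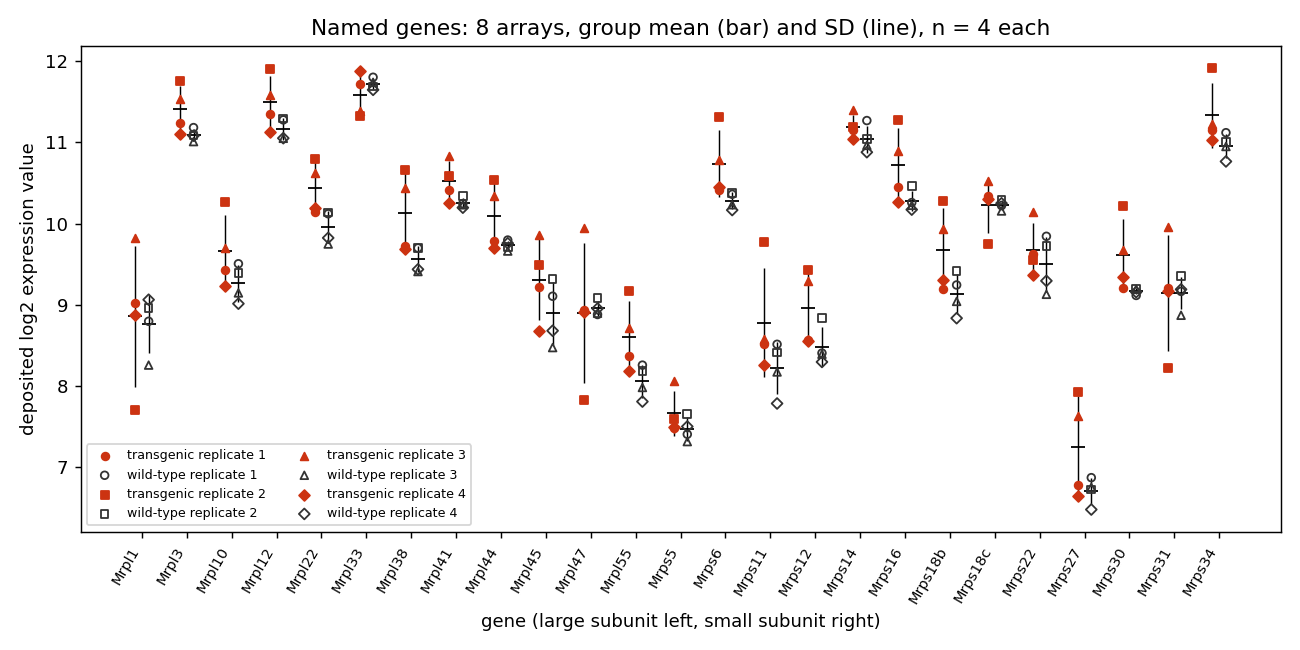
Deposited log2 values of the 25 named genes in each array, filled symbols for arrays labelled transgenic and open symbols for wild type, with the shape giving the replicate number, bars the group mean and lines the SD (n = 4 each). Transgenic replicate 2 (squares) and replicate 3 (triangles) lie highest for most genes, while Mrpl1, Mrpl47, Mrps18c and Mrps31 have replicate 2 lowest and replicate 3 highest.

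Transgenic replicates 2 and 3 differed in which genes stood high. In transgenic replicate 3, 75 of the 76 genes lay above their wild-type mean, with deviations from -0.33 to 1.13. In transgenic replicate 2 the deviations ran from -1.13 to 1.55, with 64 genes above and 12 below. Of all 9607 genes tested, 4626 lay above their wild-type mean in transgenic replicate 3 and 5810 in transgenic replicate 2. Replicate 2 was the highest of the 8 arrays for 45 genes (59.2%, against 46.8% of all genes tested) and replicate 3 for 28 (36.8%, against 15.9%). Across the 76 genes the deviations in these 2 arrays correlated at r = -0.15. The points share the same wild-type arrays, and genes are not independent replicates.

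The genes below their wild-type mean in replicate 2 were Mrpl1, Mrpl18, Mrpl21, Mrpl33, Mrpl39, Mrpl42, Mrpl47, Mrpl50, Mrpl51, Mrps18c, Mrps31 and Mrps33, of which 9 belong to the large and 3 to the small subunit. All of them but Mrpl33 were above it in replicate 3, so this opposed pattern held for 11 of 76 genes (14.5%), against 18.9% of all genes tested. Their median deviation in replicate 3 was 0.73, against 0.54 for the other 64 genes. Of these 12 genes, all with a promoter window, 6 held CCGGAAG and 1 the NRF1 motif, against 19 and 11 of the 55 others with a window.

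The widest of these were Mrpl47 and Mrpl1. Mrpl47, the relative of bacterial L29 beside the tunnel exit, had 8.93, 7.82, 9.94 and 8.91 in transgenic replicates 1 to 4 and 8.88, 9.09, 8.90 and 8.95 in wild type. The other 6 arrays lay within 0.21 on the log2 scale of each other, with replicate 2 far below and replicate 3 far above. Its group difference of -0.05 (SE 0.387) was therefore a mean of opposed deviations, -1.13 and 0.99. Mrpl1, which forms the mobile stalk beside the exit site for tRNA, had 9.02, 7.71, 9.83 and 8.88 against 8.80, 8.96, 8.26 and 9.06, a difference of 0.09 (SE 0.416). Mrps31, a mitochondrion-specific protein of the small subunit, had 9.21, 8.22, 9.96 and 9.17 against 9.17, 9.35, 8.87 and 9.19. Its groups had equal means to 2 decimals, with a difference of -0.00 (SE 0.338).

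Mrpl33, a relative of bacterial L33, was the only gene lower in both arrays. Its values were 11.72, 11.32, 11.39 and 11.89 in transgenic replicates 1 to 4 and 11.80, 11.69, 11.74 and 11.65 in wild type, a difference of -0.14 (SE 0.176; limma adjusted p = 0.814). Without transgenic replicates 2 and 3 the difference was 0.08.

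At the other end, 18 genes lay over 1 log2 unit above their wild-type mean in replicate 2. The upper quartile of the deviations in that array was 0.85 over all genes tested and 0.99 over mitoribosomal genes. Of the 18 genes, Mrps11, the relative of bacterial S11, lay highest. It had 8.51, 9.77, 8.57 and 8.26 in transgenic replicates 1 to 4 and 8.51, 8.41, 8.17 and 7.78 in wild type. Its difference of 0.56 (SE 0.340) was 0.23 without replicate 2.

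The 3 Mrps18 paralogues, all related to bacterial S18, divided between these patterns. Mrps18b had 9.20, 10.27, 9.93 and 9.31 in transgenic replicates 1 to 4 and 9.24, 9.41, 9.04 and 8.83 in wild type. Mrps18a had 10.91, 11.58, 11.19 and 10.69 against 10.89, 10.91, 10.30 and 10.56. Mrps18c had 10.34, 9.74, 10.53 and 10.30 against 10.22, 10.29, 10.16 and 10.25. Thus replicate 2 was the highest array for Mrps18a and Mrps18b and the lowest for Mrps18c, and the differences were 0.43, 0.55 and -0.00 for Mrps18a, Mrps18b and Mrps18c. None passed (limma adjusted p of 0.813 or more).

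**Figure D4:**
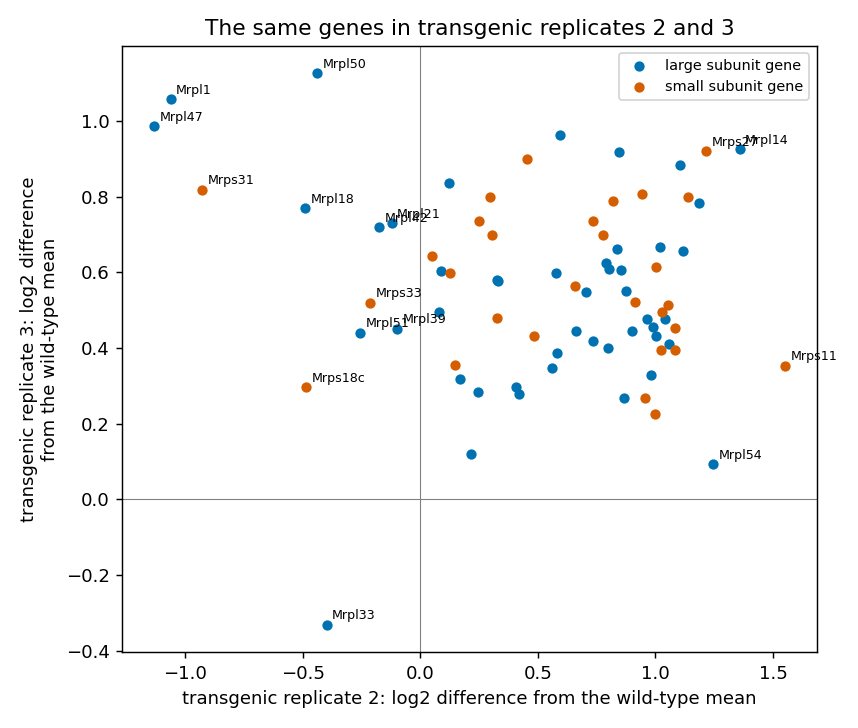
Each point is 1 of the 76 mitoribosomal genes, placed by its log2 deviation from wild type, horizontally for transgenic replicate 2 and vertically for transgenic replicate 3. A total of 64 genes lie above 0 in both, 11 lie below 0 in replicate 2 and above 0 in replicate 3, and Mrpl33 lies below 0 in both.

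The wild-type hearts also differed from each other in a shared direction. Wild-type replicates 1 and 2 both lay above wild-type replicates 3 and 4 for 54 of the 76 genes (71.1%), against 25.1% of all genes tested. Of these genes 36 were of the large and 18 of the small subunit. Among arrays labelled transgenic, replicate 1 lay above replicate 4 for 80.3% of mitoribosomal genes and for 43.1% of all genes. Among genes with Nduf symbols, read as nuclear genes for respiratory complex I, the wild-type order held for 51.5% and the transgenic order for 93.9%. Among ribosomal protein genes of the cytosol the shares were 41.0% and 35.9%. The transgenic order was therefore not particular to mitoribosomal genes. The Actb 3' minus 5' difference divided the same arrays: it was 0.85 and 0.78 in wild-type replicates 1 and 2 and 1.21 and 1.15 in replicates 3 and 4, and 0.95 in transgenic replicate 1 and 1.13 in replicate 4. The 6 macrophage and leukocyte markers above the floor had medians of 0.47, 0.03, -0.18 and -0.32 in wild-type replicates 1 to 4. In transgenic replicates 1 and 4 they were 0.30 and -0.21. The wild-type order held for 5 of these 6 markers, while Cd14 went the other way, at 8.73, 9.39, 11.25 and 10.10. That order held for 3 of 8 fibroblast, 3 of 8 endothelial, 0 of 6 smooth muscle and pericyte and 2 of 10 cardiomyocyte markers. Transgenic replicates 2 and 3, not part of this order, had Actb differences of 0.62 and 1.02. Their macrophage and leukocyte medians were 0.75 and -1.16, beside mitoribosomal medians of 0.72 and 0.55. The part of the Actb difference or of any marker list in this order of the arrays was not tested.

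Other genes of mitochondrial gene expression were read from lists. Of the mitoribosomal proteins with other names, 4 were tested, and none passed. Dap3, a small subunit protein first described as a mediator of cell death, differed by 0.34, Chchd1 by 0.33, Gadd45gip1 by 0.65 and Ptcd3, a pentatricopeptide repeat protein, by 0.01. Ptcd3 was lowest in transgenic replicate 2, at 9.89, with all other arrays at 10.52 or above.

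Factors that assemble the mitoribosome were also mostly higher: of 22 tested, 19 had higher means, with a median difference of 0.34, and 0 passed in either direction. Their medians were 0.71 and 0.53 in transgenic replicates 2 and 3. Mrm1, which methylates the large ribosomal RNA, differed by 0.65 and Mtg2, a GTPase of the large subunit, by 0.52, while Mterf3 was 8.00 in transgenic replicate 2 and 10.94 in replicate 3. Mitochondrial aminoacyl-tRNA synthetases, which charge tRNAs, had 12 of 14 means higher, with a median of 0.28 and 0 passing. Kars and Gars, which also serve the cytosol, were counted with them.

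The list of translation factors, which also counted Lrpprc, Slirp and Oxa1l, had a lower median in replicate 2. Of 10 tested, 6 had higher means and 0 passed, with medians of 0.04 in transgenic replicate 2 and 0.54 in replicate 3. The list was split in transgenic replicate 2, with 5 of the 10 above their wild-type mean. Lrpprc and Slirp had their lowest values there, at 8.10 and 9.02, and Oxa1l its highest, at 10.24. Mtif2, the initiation factor, was 6.71 in transgenic replicate 2 and 9.93 in replicate 3, and Tufm, the elongation factor that delivers tRNA, was 10.95 and 11.13. The list of mitochondrial DNA transcription and replication, which also counted Elac2, Trmt10c and Hsd17b10, had 8 of 12 means higher and 0 passing. Its medians were 0.56 and 0.63 in transgenic replicates 2 and 3. This list was split too, with 7 of 12 above their wild-type mean in transgenic replicate 2 and 4 above in both arrays. Polrmt, the RNA polymerase, differed by 0.53 and Tfam, which packages mitochondrial DNA, by 0.15, whereas Ssbp1, which coats single-stranded DNA, was 9.59 in transgenic replicate 2 with all other arrays at 11.42 or above.

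Nuclear genes for complex I, part of whose subunits are made on the mitoribosome, were taken by Nduf symbols alone, Ndufa4 included. They had a median difference of 0.13 over 33 genes tested, with 28 means higher. Their medians were 0.12 in transgenic replicate 2 and 0.35 in replicate 3. Ribosomal protein genes of the cytosol had a median of 0.08 over 39 genes, with 31 means higher (79.5%, against 57.0% of all genes tested). Their medians were 0.30 and -0.06 in the same arrays, close to those of all genes tested (0.29 and -0.02). Transgenic replicate 2 was the highest of the 8 arrays for 79.5% of them, against 46.8% of all genes tested. No complex I or cytosolic ribosomal gene passed. No test of one list against another was made.

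**Figure D5:**
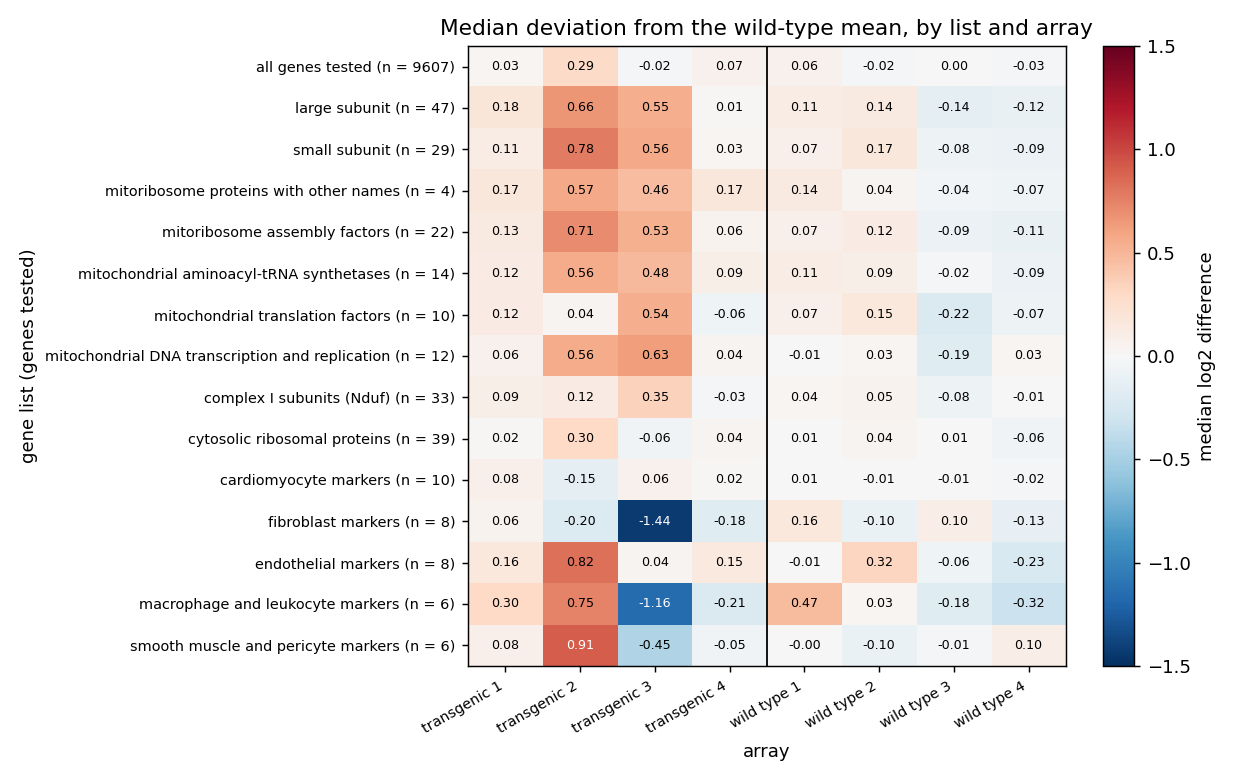
Each cell is the median, over the tested genes of a list, of the log2 difference from the wild-type mean in 1 array. The row of mitochondrial DNA transcription and replication also counts Elac2, Trmt10c and Hsd17b10. The large and small subunit rows, the assembly factor row and the row of mitochondrial DNA transcription and replication are above 0.5 in both transgenic replicates 2 and 3, whereas the cytosolic ribosomal row is at 0.30 and -0.06 and the fibroblast row at -0.20 and -1.44.

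Markers of other cell types also stood apart in these arrays. In transgenic replicate 3, 8 fibroblast markers had a median of -1.44 and 6 macrophage and leukocyte markers -1.16. In transgenic replicate 2, 8 endothelial markers had a median of 0.82 and 6 smooth muscle and pericyte markers 0.91, and the macrophage markers 0.75. These lists were split in that array. Above the wild-type mean lay 6 of 8 endothelial, 4 of 6 smooth muscle and pericyte, and 5 of 6 macrophage and leukocyte markers. The lowest deviations in these lists were -0.33, -1.61 and -2.71. The 10 cardiomyocyte markers had medians of -0.15 and 0.06 in replicates 2 and 3. The log2 summed level of the fibroblast list ran from 14.76 to 16.76 in arrays labelled transgenic and from 16.62 to 16.85 in wild type, and that of the endothelial list from 12.38 to 13.13 and from 12.20 to 12.64. For the macrophage and leukocyte list, of 9 genes, the sum ran from 12.35 to 14.09 and from 12.96 to 13.80, with Itgam, Cd3e and Cd79a at or below 5 in every array. Smooth muscle and pericyte sums ran from 14.10 to 14.74 and from 14.37 to 14.45, and cardiomyocyte sums from 18.27 to 18.57 and from 18.49 to 18.51. Of 5 erythroid and 5 adipocyte markers, 3 each were on the array, and only Alas2 and Fabp4 lay above the floor. Their sums ran from 6.02 to 8.68 and 7.08 to 8.12 (erythroid) and from 14.05 to 15.08 and 14.62 to 14.97 (adipocyte). The part of these shifts in the mitoribosomal values was not tested. In ventricle tissue, fewer cells of a type and less RNA per cell cannot be told apart.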

How the data were processed

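Total RNA of ventricles was hybridised to 8 arrays, 4 per group. The values the authors deposited are on the log2 scale. GCRMA is the method in the submitters' processing notes. It corrects probe background by base composition, normalizes arrays by quantiles and summarizes probe sets. No version is stated there. Precision is limited by how few arrays there are. Nothing in the labels pairs replicate numbers, and same-numbered arrays correlated between -0.33 and 0.30 in their deviations across genes.

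Platform annotation gave 1 symbol for 34958 of 45101 probe sets. Of these, genes with a probe set above a log2 value of 5 in at least 4 arrays were tested, 9607 in all, using limma 3.58.1 in R 4.3.3 (lmFit, eBayes) with Benjamini-Hochberg adjustment over all genes at 0.05. The steps were tested on simulated data. Deviations are log2 values minus the wild-type mean of the gene. Medians over lists are descriptions without a test. Named genes were a panel of 13, per subunit up to 3 with the smallest p in each direction and the 2 with the widest range over arrays; Mrpl18, Mrpl21, Mrpl23, Mrpl35, Mrpl39, Mrpl42, Mrpl50, Mrpl51, Mrpl58, Mrps18a, Mrps28, Mrps33, Mrps36 and the list genes were named after their values were seen. The members, lists and alternatives were chosen with earlier results of these data known. Alternatives changed the filter, scaling, probe set rule, model, threshold and test, and left out arrays.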

Additional observations from a re-analysis of the deposited data

How the results depend on the processing

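No mitoribosomal gene passed under any alternative run. Over all genes, 0 passed with limma and 0 with an unequal-variance test gene by gene, where 1 mitoribosomal gene had an unadjusted p under 0.05. The count at an unadjusted limma p under 0.05, 2 as reported, was 6 with no filter, 19 with array weights, 1 with a trended robust prior, and 0 with quantile normalization or without transgenic replicates 2 and 3. The array weights ran from 0.05 for transgenic replicate 2 to 6.62 for transgenic replicate 1. The shares of all genes at this unadjusted p under the alternatives are not given here. With array weights 1 gene of all 9607 passed, not a mitoribosomal one. Without any single array the large subunit median lay between 0.22 and 0.42, the small subunit median between 0.23 and 0.52, and the number of higher means between 65 and 75 of 76. Without transgenic replicates 2 and 3 together the small subunit median was 0.0780. The difference between groups of the large minus small value lay between -0.03 and 0.04 without any single array, and was 0.0707 without probe sets of the suffixes _x_at, _s_at and _a_at, where 57 of the 76 genes were left. With the replicate number as a block the difference was -0.02, the subunit medians 0.32 and 0.37, 0 genes passed, and the count at an unadjusted p under 0.05 was 1. Quantile normalization gave subunit medians of 0.27 and 0.32 with 70 higher means.

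Of the 25 named genes, 19 kept their sign in each setting that gave them a value, of 18 settings. Mrpl38, Mrpl55, Mrps12, Mrps16, Mrps18b and Mrps34 had no value without the suffixed probe sets, and Mrps27 had none at the floor of 7. Without any single array, Mrpl1 ranged from -0.23 to 0.47, Mrpl47 from -0.40 to 0.31, Mrps18c from -0.10 to 0.16 and Mrps31 from -0.28 to 0.31. With array weights Mrpl33, Mrpl47, Mrps18c and Mrps31 were at 0.0218, 0.0169, 0.111 and 0.108. Without transgenic replicates 2 and 3 Mrpl33, Mrps18c and Mrps31 were at 0.0839, 0.0884 and 0.0488 and Mrps22 at -0.0044. The cause of these changes of sign was not tested beyond the arrays left out.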

Other observations

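Of the 156 probe sets of mitoribosomal genes, 115 exceeded the floor and 110 of these had a higher mean in the arrays labelled transgenic. For 28 genes several probe sets exceeded it. Their differences spanned a median of 0.13, and the signs differed for 1 gene, Mrpl50, at -0.55 and 0.18. In transgenic replicate 2 the median span was 0.27. There the 2 probe sets of Mrpl50 deviated by -2.69 and -0.44, and the 3 of Mrpl51 between -1.94 and 0.04. In transgenic replicate 2 the sign differed between probe sets for 4 genes, Mrpl35, Mrpl39, Mrpl51 and Mrps14, and in transgenic replicate 3 for 0 genes. Mrpl30 and Mrpl53, whose probe sets carry a second symbol, were not analysed here.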
